A study of Mus musculus with 61 samples.

Results

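Genes of megakaryocytes and platelets, Pf4, Ppbp, Gp1ba, Gp1bb, Gp9, Gp6, Itga2b and Vwf, were followed through mouse fetal liver, with brain as the reference tissue. They were chosen by name, and their identifiers were matched to GENCODE mouse symbols; all 8 had 1 row each among the 43346 genes of the table. The libraries were poly(A) RNA-seq of 14 liver samples at 7 stages (E11.5, E12.5, E13.5, E14.5, E15.5, E16.5 and the day of birth, P0) and of 47 brain samples (15 forebrain, 16 midbrain, 16 hindbrain) at these stages and at E10.5. There were 2 libraries per tissue and stage; only forebrain at E10.5 had 1. The labels name tissue and stage and no strain, genotype or treatment; liver and brain are whole tissues that hold many cell types.

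Platelets are shed by megakaryocytes, large cells that arise from the same progenitors as red blood cells, and the fetal liver is the main blood-forming organ of mid-gestation. Platelet alpha granules store the chemokines platelet factor 4 (Pf4) and pro-platelet basic protein (Ppbp) and the adhesive protein von Willebrand factor (Vwf). On the platelet surface Gp1ba, Gp1bb and Gp9, together with Gp5, form the receptor that binds von Willebrand factor, Gp6 is a collagen receptor that signals through Fcer1g, and Itga2b pairs with Itgb3 to bind fibrinogen. Some of these genes are also used outside platelets: Vwf is made by endothelial cells, Itga2b marks early blood progenitors of the embryo, and Pf4 is expressed by macrophages at the borders of the mouse brain.

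The genes lie at these places in mm10. Ppbp (chromosome 5, 90768518 to 90770063) and Pf4 (chromosome 5, 90772435 to 90773383) are neighbours on the plus strand. Gp9 (chromosome 6, 87778072 to 87779768), Vwf (chromosome 6, 125546774 to 125686679) and Gp1ba (chromosome 11, 70639122 to 70642036) are also on the plus strand. Gp6 (chromosome 7, 4363965 to 4397744), Itga2b (chromosome 11, 102453297 to 102470122) and Gp1bb (chromosome 16, 18620317 to 18622403) are on the minus strand. Gp1bb shares 1902 of its 2087 exon bases (91.1%) with Sept5, a septin gene of the same strand, so reads could be assigned to either gene and its values are uncertain where Sept5 is high.

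Promoter windows are shown for 2 pairs of genes whose levels moved apart in liver: the neighbours Pf4 and Ppbp, and the receptor partners Gp1ba and Gp9. Each runs 5′ to 3′ on the gene's strand from 250 bases before to 50 after the RefSeq start (GRCm38.p6). Capitals mark the hexamer AGATAA with its variants ending in G (AGATAG) or starting with T (TGATAA) or both (TGATAG), the form bound by GATA factors, and the hexamer AGGAAG with its variant starting with C (CGGAAG), the form bound by ETS factors, searched on both strands, so that a match on the opposite strand appears as its reverse complement. No GATA-type match overlapped an ETS-type match in these 4 windows.
Pf4 (chr5:90772185-90772484, plus strand): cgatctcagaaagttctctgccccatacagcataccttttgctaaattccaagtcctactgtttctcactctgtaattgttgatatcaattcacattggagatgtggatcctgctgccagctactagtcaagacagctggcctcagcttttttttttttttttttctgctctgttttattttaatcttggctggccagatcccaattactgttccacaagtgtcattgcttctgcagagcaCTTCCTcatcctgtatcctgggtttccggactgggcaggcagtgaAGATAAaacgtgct
Ppbp (chr5:90768268-90768567, plus strand): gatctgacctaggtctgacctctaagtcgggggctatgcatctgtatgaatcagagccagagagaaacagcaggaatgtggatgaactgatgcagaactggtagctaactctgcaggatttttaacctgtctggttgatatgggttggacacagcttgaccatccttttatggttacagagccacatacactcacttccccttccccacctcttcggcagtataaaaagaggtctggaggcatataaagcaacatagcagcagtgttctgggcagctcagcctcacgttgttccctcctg
Gp1ba (chr11:70638872-70639171, plus strand): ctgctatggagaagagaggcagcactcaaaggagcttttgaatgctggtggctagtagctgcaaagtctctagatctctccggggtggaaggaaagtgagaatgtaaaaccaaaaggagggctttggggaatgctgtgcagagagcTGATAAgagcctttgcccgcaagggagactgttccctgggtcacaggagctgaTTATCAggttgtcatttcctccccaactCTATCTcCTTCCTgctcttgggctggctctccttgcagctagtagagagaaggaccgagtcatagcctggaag
Gp9 (chr6:87777820-87778119, plus strand): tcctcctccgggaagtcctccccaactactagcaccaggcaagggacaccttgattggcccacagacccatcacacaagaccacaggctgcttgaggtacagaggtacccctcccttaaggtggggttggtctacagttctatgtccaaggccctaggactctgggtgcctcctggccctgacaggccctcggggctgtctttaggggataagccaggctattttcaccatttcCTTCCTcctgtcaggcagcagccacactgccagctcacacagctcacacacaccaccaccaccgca
Of the 7 genes with a window in the RefSeq table, 4 held a GATA-type hexamer (Pf4, Gp1ba, Gp1bb and Gp6), 5 held an ETS-type one (Pf4, Gp1ba, Gp1bb, Gp9 and Itga2b) and 3 held both. Over all 32851 windows of the same length the shares were 29.8%, 46.5% and 12.6%. Gp1ba held 3 GATA-type matches, whose first bases lay at -104, -51 and -23 from the start, and 1 ETS-type match at -16. The Ppbp window held neither kind of hexamer. A match describes the letters of the window and is not a site.

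Values are TPM, which keep no read counts, so depth is unknown. They are scaled per transcript length, so levels of different genes can be set side by side. At least 1 TPM was reached by 12104 to 13791 genes in liver libraries and by 13780 to 15561 in brain libraries. The 12 hepatocyte markers summed to 14106 to 206738 TPM in liver libraries and to 24.2 to 2926 TPM in brain libraries, and the 8 neuron markers to 4.09 to 39.7 TPM in liver and 423 to 6372 TPM in brain. The tissue composition of liver changed with age: the 7 haemoglobin genes summed to 58050 and 63037 TPM at E11.5, 388071 and 386844 TPM at E15.5, and 108527 and 114857 TPM at P0. Because TPM are shares of a fixed total, a gene with a steady number of transcripts falls when haemoglobin rises. The mitochondrial transcript mt-Co3 divided the liver libraries: it was at 156 to 1702 TPM at E13.5, E15.5 and P0 and at 3919 to 9144 TPM at E11.5, E12.5, E14.5 and E16.5. The labels name no batch for this. Liver at P0 and at E11.5 lies on different sides of this division. Every liver comparison of P0 with E11.5, and of that change with the brain change, therefore spans it. The E12.5 brain libraries held 3.64 to 112 TPM of the liver gene Alb. At E15.5 the hindbrain gene Hoxb3 was at 87.6 and 78.0 TPM in the libraries labelled midbrain and at 0.15 and 0.24 TPM in those labelled hindbrain; brain was taken as the average of its 3 regions. In 4 brain libraries the title and the description name different stages, and the description was used. No call between liver and brain was lost when the E12.5 brain libraries, the E15.5 midbrain and hindbrain libraries or the 4 conflicting libraries were left out (E12.5 itself then has no brain value); with the stage taken from the title, the Gp1bb difference at P0 was -0.98 and was not called. The labels do not say that replicates came from separate animals, so p-values measure the spread between these libraries, which may be technical. That spread is pooled over all 61 libraries, 47 of them brain, and not taken from the compared groups alone. For the 8 genes, the largest difference between the 2 liver libraries of a stage was 1.12-fold (E13.5) to 1.34-fold (E14.5) before birth and 1.65-fold at P0. The SE of a comparison with P0 liver can therefore understate the spread there.

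The stored chemokines were the most abundant of the 8 genes in liver. Pf4 averaged 222.5 ± 98.7 TPM and Ppbp 129.0 ± 25.5 TPM over the liver libraries (SD, n = 14), and Pf4 was above Ppbp in 14 of 14. Itga2b averaged 38.8 ± 22.6 TPM and Gp9 30.5 ± 7.76 TPM; each was above the other in 7 of 14 libraries, so their order was not separated. Below them stood Vwf with 17.2 ± 11.9 TPM, Gp1ba with 9.26 ± 5.36 TPM, Gp1bb with 4.63 ± 2.41 TPM and Gp6 with 3.93 ± 0.953 TPM. Gp9 exceeded Vwf in 12 of 14 libraries, Vwf exceeded Gp1ba in 13 of 14 and Gp1ba exceeded Gp1bb in 14 of 14. Gp1bb exceeded Gp6 in only 8 of 14, so the last 2 places were not separated. These SDs span stages as well as replicates.

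**Figure D1:**
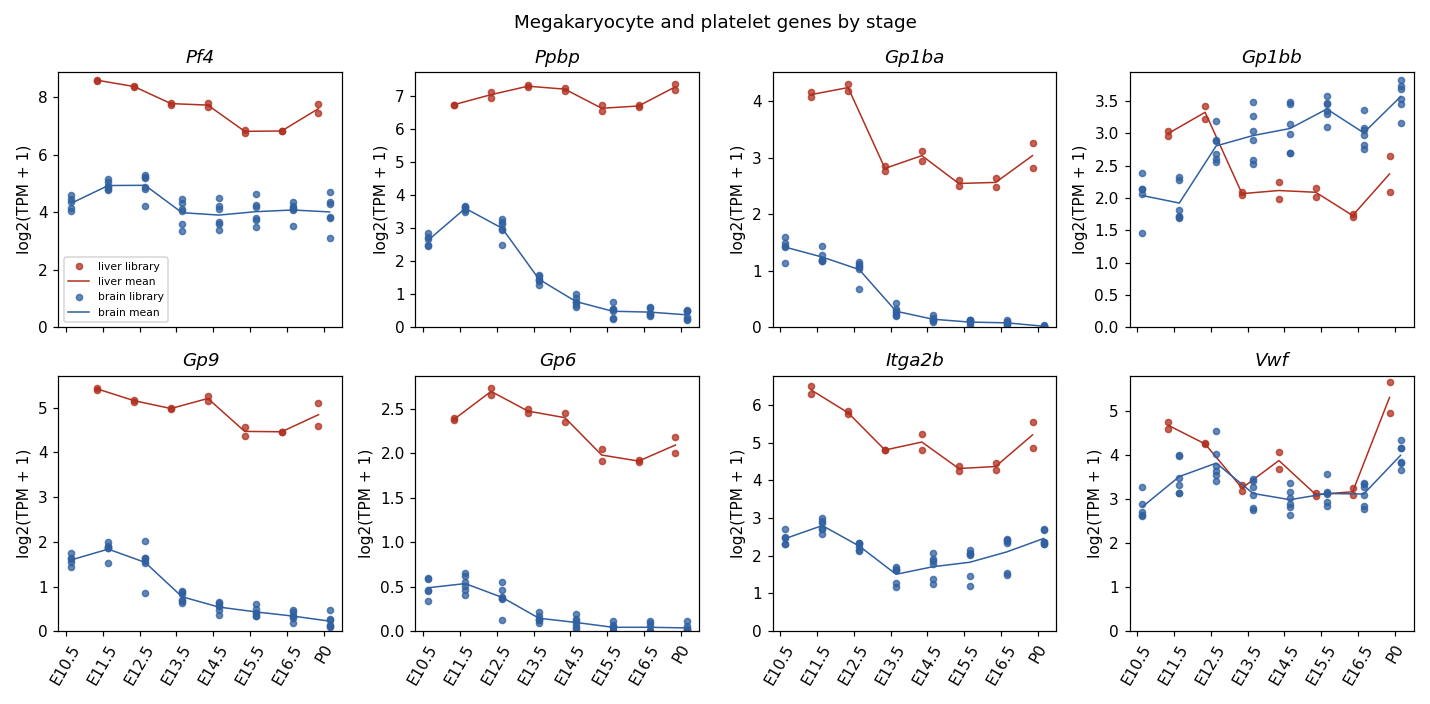
Level of each of the 8 genes as log2(TPM + 1) against stage; each point is 1 library, red for liver (drawn left) and blue for brain, and lines join the means of a stage. Ppbp, Gp9, Gp6, Gp1ba, Pf4 and Itga2b stand above brain at every stage, whereas the Gp1bb lines cross between E12.5 and E13.5 on this scale (not with quantile normalization) and the Vwf libraries overlap at 4 stages.

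Liver was compared with brain to ask which of the genes marked the blood-forming tissue at every stage. Of the 8, 6 genes, Ppbp, Gp9, Pf4, Itga2b, Gp1ba and Gp6, were called higher in liver on the average of E11.5 to P0 (limma on log2(TPM + 1), Benjamini-Hochberg adjusted p below 0.05 over all 18655 genes tested, with a log2 fold change of 1 or more in size). In this comparison 9.33% of all genes tested were called higher. All 8 genes passed the filter of 1 TPM in at least 2 libraries, but Gp6 passed only through its liver libraries, so its difference from brain was bound to appear and the count of 6 is a description.

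Ppbp had the largest difference, 5.54 ± 0.04 (log2 fold change ± SE, adjusted p = 1.92e-45). Gp9 followed with 4.12 ± 0.06 (adjusted p = 4.72e-37), Pf4 with 3.40 ± 0.09 (adjusted p = 5.07e-29), Itga2b with 3.03 ± 0.05 (adjusted p = 1.8e-36), Gp1ba with 2.78 ± 0.04 (adjusted p = 1.84e-38) and Gp6 with 2.09 ± 0.03 (adjusted p = 3.3e-38). This order belongs to the log2(TPM + 1) scale, which understates differences of low genes. In mean TPM at E14.5, liver was 202.9-fold brain for Ppbp, 78.51-fold for Gp9, 67.95-fold for Gp1ba and 59.65-fold for Gp6. It was 14.49-fold for Pf4 and 13.53-fold for Itga2b. Brain means of Gp1ba and Gp6 were then 0.1067 and 0.07167 TPM, so their ratios are imprecise. Vwf, at 0.56 ± 0.06, and Gp1bb, at -0.57 ± 0.04, did not reach the fold threshold. The median of all genes tested was itself -0.82 in liver relative to brain, and -0.44 with the haemoglobin and hepatocyte genes left out and the rest rescaled, where Vwf was called at 1.11. Under median-of-ratios scaling, which brought that median to -0.02, Vwf was called higher at 1.69, and quantile normalization gave 1.70; over all genes, the 1740 called higher and 8203 lower became 4062 and 4151 under the first scaling and 3975 and 3866 under the second. In bulk tissue, more cells of a type and more RNA per cell cannot be told apart.

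Stage by stage, the same 6 genes were called higher in liver at all 7 stages. At E11.5 all 8 genes were called higher, including Vwf at 1.17 ± 0.15 and Gp1bb at 1.07 ± 0.12, against 8.64% of all genes. The count was 6 at E12.5 (7.18% of all genes higher), E13.5 (8.16%), E14.5 (9.30%), E15.5 (10.5%) and E16.5 (11%), and 7 at P0 (12.1%), where Vwf joined at 1.31 ± 0.15 (adjusted p = 2.77e-10). Without the first P0 liver library the Vwf difference at P0 was 0.97 and was not called. Gp1bb was the gene called lower, at E15.5 (-1.29 ± 0.12), E16.5 (-1.28 ± 0.12) and P0 (-1.19 ± 0.12), where 48.7%, 50.8% and 49.4% of all genes were called lower; without the second P0 liver library it was -0.91 at P0 and not called.

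**Figure D2:**
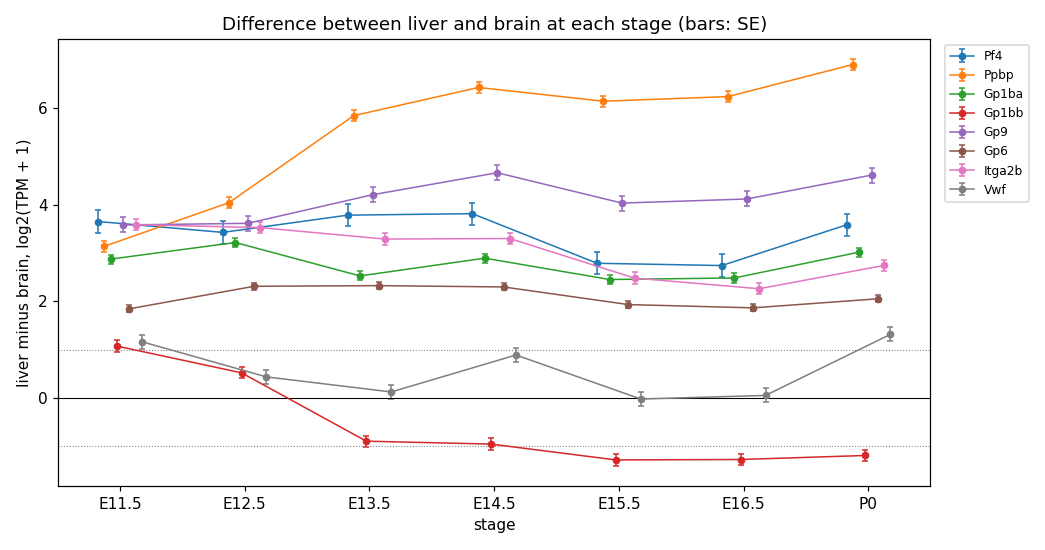
Liver minus brain on the log2(TPM + 1) scale at each stage, with 1 line per gene, error bars of 1 SE and dotted lines at the fold threshold of 1. The Ppbp line climbs to 6.91 at P0 and the Gp1bb line crosses below 0 after E12.5; with quantile normalization it stayed above 0 (0.55 at E13.5 and 0.10 at P0).

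In liver Pf4 was highest at E11.5, lowest at E15.5 and E16.5, and higher again at P0. It was at 387 and 379 TPM at E11.5, 334 and 324 TPM at E12.5, 212 and 223 TPM at E13.5 and 221 and 199.8 TPM at E14.5. It was at 107 and 116 TPM at E15.5, 111 and 113 TPM at E16.5 and 215 and 173 TPM at P0. The E15.5 and E16.5 libraries are the lowest and do not overlap those of any other stage. Over the 7 stages the change of Pf4 was called (F test, adjusted p = 7.25e-07), with a range of stage means of 1.78 on the log2 scale. No single step of the 3 tested between neighbouring periods reached the fold threshold: the differences were -0.73 ± 0.20 for E13.5 and E14.5 against E11.5 and E12.5, -0.93 ± 0.20 for E15.5 and E16.5 against E13.5 and E14.5, and 0.78 ± 0.24 for P0 against E15.5 and E16.5. Under median-of-ratios scaling the first of these was 0.03, and the range over the 7 stages was 0.97 and was not called. P0 against E11.5 was at -0.99 and was not called, but was called at -1.14 without the first P0 library and at -1.0016 without the second E11.5 library.

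In brain Pf4 was lower and did not disappear. The 6 brain libraries of a stage had a lowest, median and highest value of 26.0, 29.0 and 34.6 TPM at E11.5, 9.17, 16.1 and 20.8 TPM at E13.5, and 7.53, 15.9 and 25.3 TPM at P0. Mean Pf4 in liver was 12.9-fold that in brain at E11.5, 6.94-fold at E16.5 and 12-fold at P0. The 8 markers of border-associated macrophages, which include Mrc1, Cd163 and Lyve1, summed to 41.0 to 86.3 TPM in brain at P0 and to 67.5 to 120.5 TPM at E11.5. In liver they summed to 192.4 to 203.3 TPM at P0 and to 112.8 to 122.9 TPM at E11.5, so they are not particular to brain. Their part in the brain Pf4 level was not tested.

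Ppbp took a different course in liver from its neighbour Pf4. It was at 107 and 107 TPM at E11.5, 140 and 124 TPM at E12.5, 154 and 161 TPM at E13.5 and 153 and 143 TPM at E14.5. It was at 92.6 and 105 TPM at E15.5, 102 and 106 TPM at E16.5 and 166 and 146 TPM at P0. The E13.5 libraries were above those of E11.5 and of E16.5, and the whole range of stage means was 0.67 on the log2 scale, under the threshold for a call. Under median-of-ratios scaling the range was 1.72 and was called.

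In brain Ppbp was near 0 by P0. Its lowest, median and highest values were 10.4, 11.2 and 11.9 TPM in the 6 libraries of E11.5, 4.68, 7.30 and 8.78 TPM at E12.5, 1.44, 1.76 and 2.01 TPM at E13.5, and 0.18, 0.32 and 0.44 TPM at P0. Mean Ppbp in liver was 9.52-fold that in brain at E11.5, 89.9-fold at E13.5 and 507-fold at P0.

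The ratio of Pf4 to Ppbp inside a library does not depend on a factor that scales the whole library, though quantile normalization can change it. In liver it was 3.62 and 3.56 at E11.5, 2.38 and 2.61 at E12.5, 1.38 and 1.38 at E13.5 and 1.44 and 1.40 at E14.5. It was 1.15 and 1.10 at E15.5, 1.09 and 1.07 at E16.5 and 1.29 and 1.18 at P0. The 4 libraries of E11.5 and E12.5 thus lie above the other 10, and replicates of a stage differ by less than that gap. In brain the ratio moved the other way, with 2.26 to 2.98 in the libraries of E11.5, 4.78 to 11.6 at E13.5 and 31.4 to 74.1 at P0. Brain Ppbp did not exceed 0.44 TPM at P0, so the size of the ratio there is imprecise. The ratio of Pf4 to Ppbp and the next ratios were chosen after the values were seen and have no test.

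In the receptor for von Willebrand factor, Gp9 and Gp1ba changed by different amounts in liver. They still ran together more than Pf4 and Ppbp, with a Pearson correlation over the 14 liver libraries of 0.793 against 0.335. Gp1ba and Gp1bb were at 0.956. Gp1ba, the subunit that binds the ligand, was at 15.8 and 17.0 TPM at E11.5, 18.8 and 17.2 TPM at E12.5, 6.24 and 5.84 TPM at E13.5 and 6.75 and 7.75 TPM at E14.5. It was at 4.64 and 5.07 TPM at E15.5, 5.25 and 4.62 TPM at E16.5 and 8.58 and 6.08 TPM at P0. The 4 early libraries are all above the 10 later ones. Gp9, a small subunit needed for the complex to reach the surface, was at 41.0 and 42.7 TPM at E11.5, 35.3 and 34.1 TPM at E12.5, 30.9 and 30.4 TPM at E13.5 and 34.6 and 37.4 TPM at E14.5. It was at 19.6 and 22.9 TPM at E15.5, 20.97 and 21.1 TPM at E16.5 and 33.5 and 22.95 TPM at P0.

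The ratio of Gp9 to Gp1ba was 2.60 and 2.51 at E11.5 and 1.88 and 1.99 at E12.5, and lay between 3.78 and 5.202 in the 10 libraries of E13.5 to P0. The other receptor pair kept closer together: the ratio of Itga2b to Itgb3 was between 1.31 and 1.72 in the 12 libraries after E11.5, and 2.08 and 2.07 at E11.5.

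**Figure D3:**
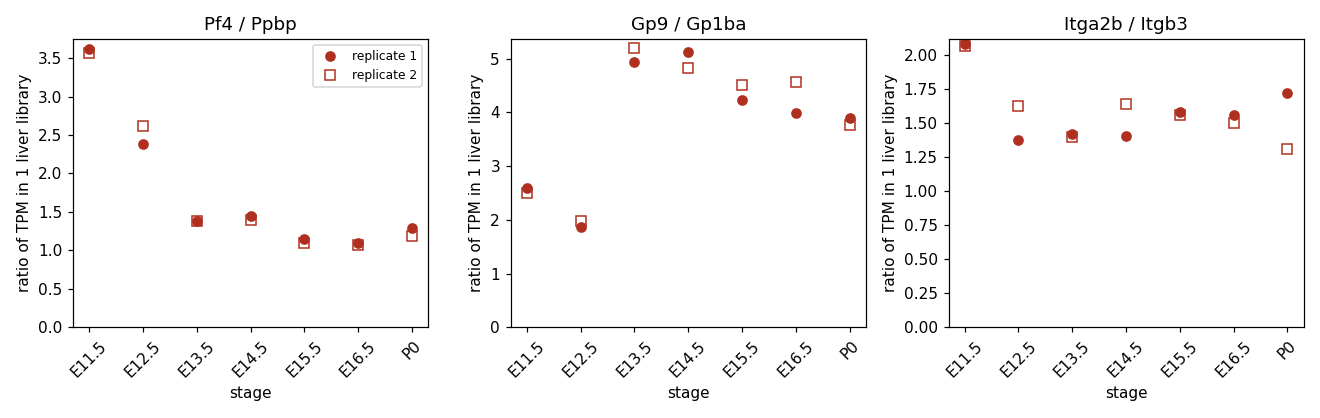
Ratio of TPM inside each liver library against stage for 3 pairs of genes; filled circles are replicate 1 and open squares replicate 2, and each axis starts at 0. Pf4/Ppbp is near 1 at E16.5 (1.09 and 1.07) and highest at E11.5 (3.62 and 3.56), whereas Gp9/Gp1ba is lowest at E12.5 (1.88 and 1.99) and highest at E13.5 and E14.5.

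Of the 8, 3 genes were called lower in the liver of E13.5 and E14.5 than in that of E11.5 and E12.5, Gp1ba, Gp1bb and Itga2b, against 13.2% of all genes called lower. Gp1ba fell by 1.26 ± 0.08 on the log2 scale (adjusted p = 1.28e-15), Itga2b fell by 1.18 ± 0.10 (adjusted p = 1.8e-12) and Gp1bb fell by 1.07 ± 0.10 (adjusted p = 1.43e-11). Vwf, at -0.90 ± 0.13, Gp9, at -0.19 ± 0.13, Gp6, at -0.10 ± 0.06, and Ppbp, at 0.36 ± 0.10, were not called. The median of all genes fell by 0.47 in the same step, in which the haemoglobin share grew, and the 3 falls shrank to between -0.35 and -0.59 and lost their call when quantile normalization or median-of-ratios scaling was used; under median-of-ratios scaling Ppbp was instead called higher at 1.12. With the haemoglobin and hepatocyte genes left out and the rest rescaled they were -0.92 (Gp1ba), -0.80 (Itga2b) and -0.78 (Gp1bb), also without a call. Taking only E14.5 against E11.5 and E12.5, stages alike in mt-Co3, the falls were -1.14 (Gp1ba), -1.08 (Itga2b) and -1.04 (Gp1bb), all called.

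Itga2b itself was at 76.6 and 89.8 TPM at E11.5, 52.9 and 55.6 TPM at E12.5, 27.1 and 26.7 TPM at E13.5 and 27.0 and 36.2 TPM at E14.5. It was at 17.9 and 19.8 TPM at E15.5, 21.01 and 18.3 TPM at E16.5 and 46.0 and 27.9 TPM at P0. Each E11.5 library exceeded every later one. Its receptor partner Itgb3, not among the 8 genes, was at 12.2 and 13.4 TPM at E16.5 and at 36.8 and 43.5 TPM at E11.5. The lowest, median and highest values of Itga2b in brain were 5.01, 5.90 and 7.01 TPM at E11.5, 1.27, 2.08 and 2.24 TPM at E13.5 and 3.97, 4.16 and 5.51 TPM at P0, and its P0 libraries lay above its E13.5 libraries, which those of Ppbp, Gp9 and Gp1ba did not.

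Gp6 had the lowest mean of the 8 in liver and 1 of the 3 smallest ranges of stage means. It was at 4.24 and 4.18 TPM at E11.5, 5.65 and 5.29 TPM at E12.5, 4.46 and 4.64 TPM at E13.5 and 4.46 and 4.09 TPM at E14.5. It was at 2.77 and 3.12 TPM at E15.5, 2.72 and 2.80 TPM at E16.5 and 3.54 and 3.0 TPM at P0. The stage means spanned 0.78 on the log2 scale, which was not called. No brain library exceeded 0.57 TPM of Gp6.

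Over the 7 liver stages, the F test called 5 of the 8 genes, Vwf (range 2.21), Itga2b (2.08), Pf4 (1.78), Gp1ba (1.70) and Gp1bb (1.59), against 63.6% of all genes called. Ppbp, Gp6 and Gp9 (range 0.96) were not called. Under median-of-ratios scaling Pf4 and Itga2b (ranges 0.97 and 0.96) were not called, and Ppbp and Gp6 (1.72 and 1.04) were; Gp9 was called at 1.06 without the second E15.5 liver library. In the step of E15.5 and E16.5 against E13.5 and E14.5 none of the 8 was called, against 3.51% of all genes; 7 of the 8 had an adjusted p below 0.05 with differences of -0.37 to -0.93, and Gp1bb was at -0.18. Between the last and the first liver stage, P0 against E11.5, Itga2b fell by 1.19 ± 0.15 (adjusted p = 4.05e-09) and Gp1ba fell by 1.08 ± 0.12 (adjusted p = 1.83e-10), 2 of the 8 genes against 38.2% of all genes called lower and a median of -0.69. P0 and E11.5 differ in mt-Co3 class, so stage and that division cannot be told apart here. Neither fall was called without the second P0 liver library (-0.84 for Itga2b and -0.86 for Gp1ba) or under the other scalings, and under median-of-ratios scaling the Gp1ba difference was 0.0006. With median-of-ratios scaling and with quantile normalization 2 other genes were called in this comparison, both higher: Ppbp at 1.72 and 1.02, and Vwf at 1.80 and 1.32.

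Of the 8 genes, Vwf changed most at birth. In liver it was at 26.1 and 23.2 TPM at E11.5, 18.2 and 17.9 TPM at E12.5, 9.04 and 8.04 TPM at E13.5 and 11.9 and 15.8 TPM at E14.5. It was at 7.38 and 7.82 TPM at E15.5, 8.48 and 7.51 TPM at E16.5 and 49.3 and 30.3 TPM at P0. Both P0 libraries exceeded every earlier liver library, though they differed between themselves by 1.63-fold. Vwf rose by 2.17 ± 0.15 on the log2 scale at P0 against E15.5 and E16.5 (limma, adjusted p = 2.79e-14), the 1 call among the 8 genes, against 7.05% of all genes called higher. This SE is pooled over all 61 libraries and is not the spread of the 2 P0 libraries. P0 against E15.5 alone, stages alike in mt-Co3, gave 2.21 ± 0.18, and leaving out single libraries gave 1.83 to 2.52.

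The other 7 genes were at 0.15 to 0.87 in this step, with Itga2b at 0.87 ± 0.13, Pf4 at 0.78 ± 0.24 and Gp6 at 0.15 ± 0.08. The first P0 library was above the second for 8 of 8 genes, by up to 1.65-fold for Itga2b, which was called at 1.22 when the second was left out. In brain the lowest, median and highest Vwf values were 7.86, 9.57 and 15.1 TPM at E11.5, 5.83, 8.10 and 9.28 TPM at E16.5 and 11.6, 15.1 and 19.2 TPM at P0.

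Endothelial markers were set beside Vwf, which endothelial cells also make. The 12 endothelial markers summed to 403.5 to 426 TPM at E11.5, 157 to 172 TPM at E13.5, 166 to 180 TPM at E16.5 and 273 to 328 TPM at P0. Their sums at P0 were below those of E11.5, and both P0 libraries of Vwf exceeded both E11.5 libraries. Between these stages Vwf differed by 0.63 ± 0.18 and was not called. The median over the 12 markers was -0.58, against -0.69 over all genes. At P0 against E15.5 and E16.5, 3 of the 12 were called higher (Lyve1 at 1.05, Esam at 1.03 and Pecam1 at 1.004) and none lower, against 7.05% of all genes called higher, with a median of 0.81 over the 12 and 0.00 over all genes. In the step of E13.5 and E14.5 against E11.5 and E12.5, 8 of the 12 were called lower, against 13.2% of all genes. Their median was -1.15, and Vwf was at -0.90 and not called. With quantile normalization or median-of-ratios scaling no endothelial gene was called lower in that step (medians -0.44 and -0.46), against 398 and 534 of all genes. At P0 against E15.5 and E16.5 the 3 calls became 0 and 4 in these settings, with medians of 0.71 and 0.93. Over all genes, 1171 and 1714 were called higher in that step. The endothelial part in the Vwf level was not tested.

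**Figure D4:**
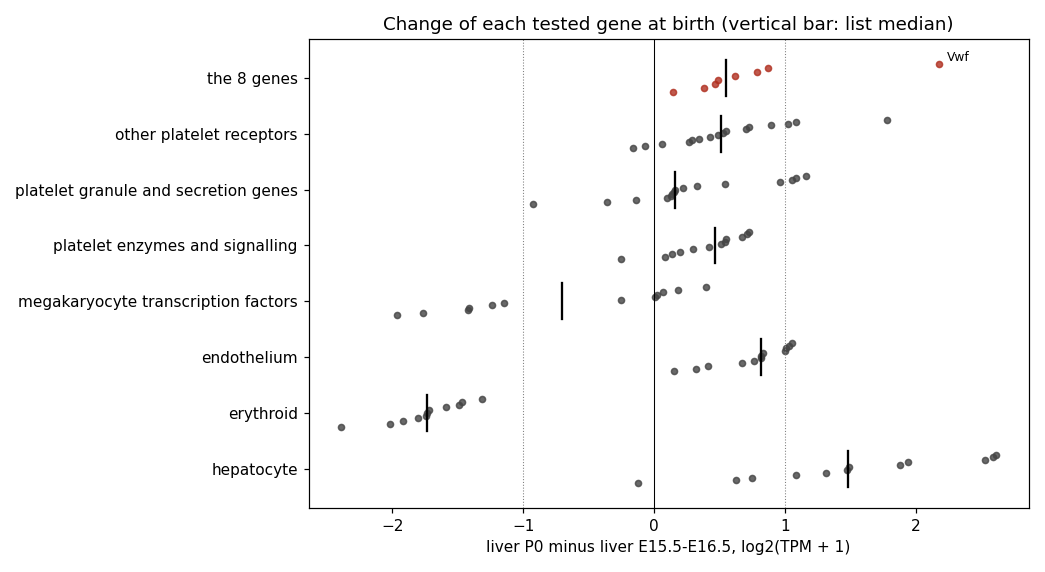
Difference of each tested gene between liver at P0 and liver at E15.5 and E16.5 on the log2(TPM + 1) scale, 1 row per gene list, with a vertical bar at the list median and dotted lines at the fold threshold of 1. Vwf lies at 2.17, apart from the other 7 genes at 0.15 to 0.87, the erythroid genes lie to the left and most hepatocyte genes to the right.

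Gp1bb, the subunit disulfide-linked to Gp1ba, must be read with Sept5. In liver Gp1bb was at 7.21 and 6.75 TPM at E11.5, 8.33 and 9.74 TPM at E12.5, 3.26 and 3.12 TPM at E13.5 and 2.95 and 3.75 TPM at E14.5. It was at 3.06 and 3.45 TPM at E15.5, 2.37 and 2.26 TPM at E16.5 and 5.28 and 3.26 TPM at P0. Sept5 was at 1.38 to 7.20 TPM in liver. In brain the lowest, median and highest Gp1bb values were 2.24, 2.41 and 3.99 TPM at E11.5, 4.76, 6.80 and 10.2 TPM at E13.5 and 7.96, 11.2 and 13.2 TPM at P0, while Sept5 had a lowest, median and highest of 258, 337 and 376 TPM at P0 and 57.0, 61.7 and 96.0 TPM at E11.5.

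Across the 47 brain libraries the Pearson correlation on the log2(TPM + 1) scale was 0.914 between Gp1bb and Sept5 and -0.807 between Gp1bb and Gp1ba. Across the 14 liver libraries it was 0.523 with Sept5 and 0.956 with Gp1ba. These libraries share stages, and the values are descriptions. Reads of Gp1bb and Sept5 cannot be told apart over their shared exon bases in these values. The sign of the Gp1bb difference between liver and brain at P0, E15.5 and E16.5 changed with scaling: under quantile normalization it was 0.10, 0.14 and 0.13, and under median-of-ratios scaling 0.08, -0.08 and -0.10. It was also positive on the average of E11.5 to P0 (0.63 and 0.44), at E13.5 (0.55 and 0.26) and at E14.5 (0.50 and 0.15) in these settings, where it was not called.

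**Figure D5:**
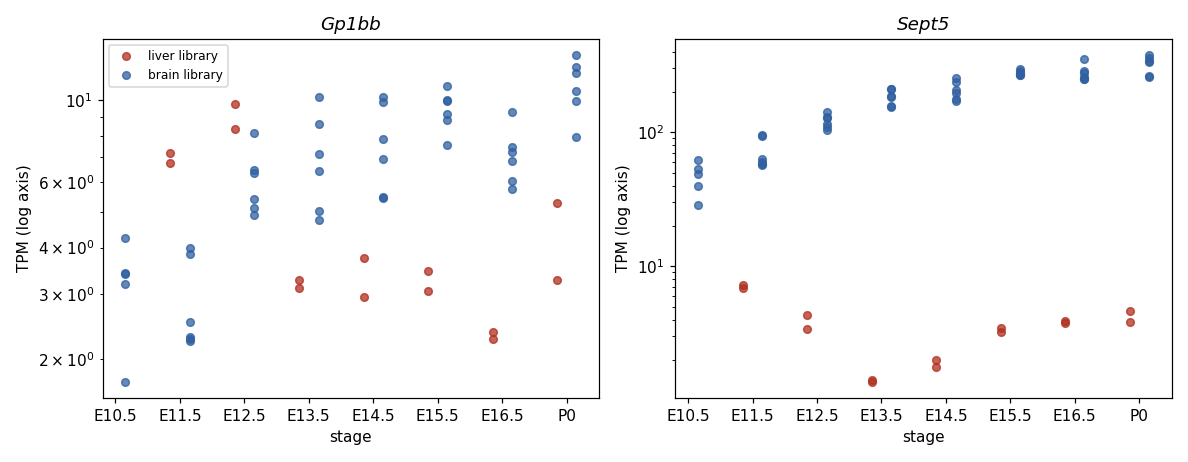
TPM of Gp1bb and of the overlapping gene Sept5 on log axes against stage, 1 point per library, red for liver (left) and blue for brain. Sept5 stays at 7.20 TPM or lower in liver and reaches 376 TPM in brain, where Gp1bb is higher at P0 than at E11.5.

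The change over time was compared between the tissues. In brain at P0 against E11.5, 3 of the 8 genes were called lower, Ppbp by -3.23 ± 0.08 (adjusted p = 9.52e-29), Gp9 by -1.61 ± 0.11 (adjusted p = 1.33e-15) and Gp1ba by -1.22 ± 0.07 (adjusted p = 2.43e-18), against 12.3% of all genes. Gp1bb was called higher by 1.64 ± 0.08, against 17.5% of all genes. Pf4 was at -0.92 ± 0.16, Gp6 at -0.50 ± 0.05, Itga2b at -0.34 ± 0.08 and Vwf at 0.48 ± 0.10. Pf4 was called in this comparison without the second hindbrain P0 library (-1.19), without the 4 libraries of conflicting labels (-1.18) and with the stage from the title (-1.14). In brain Gp1ba had a lowest, median and highest of 0.00, 0.02 and 0.03 TPM at P0 and 1.27, 1.28 and 1.72 TPM at E11.5, and Gp9 of 0.07, 0.15 and 0.40 TPM at P0 and 1.87, 2.66 and 2.98 TPM at E11.5. The erythroid list moved with them in brain, with 10 of 11 measured genes called lower and none higher; its part was not tested.

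The liver change exceeded the brain change for Ppbp by 3.77 ± 0.16 (interaction term, adjusted p = 1.81e-21) and for Gp9 by 1.03 ± 0.22 (adjusted p = 6.58e-05), 2 of the 8 genes against 9.32% of all genes. It was lower for Gp1bb by -2.27 ± 0.17 (adjusted p = 1.3e-14), against 38.6% of all genes. The Gp9 value was 0.77, and not called, without the first P0 liver library, and 0.98 without the first hindbrain library of E11.5 or of P0. Pf4 (-0.07 ± 0.33), Gp1ba (0.14 ± 0.13), Vwf (0.15 ± 0.21), Gp6 (0.21 ± 0.10) and Itga2b (-0.85 ± 0.17) were not called; Itga2b was called at -1.20 without the first P0 liver library, and its sign was positive under both other scalings (0.21 and 0.25). Under median-of-ratios scaling Vwf (1.22), Gp6 (1.10) and Gp1ba (1.04) were called, and with a pseudocount of 0.1 Gp1ba (2.51) and Gp6 (1.78) were.

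Other genes of the platelet programme were counted from lists chosen by function. Of 16 other platelet receptors and surface proteins, 10 were called higher in liver than in brain on the average of E11.5 to P0 and 1 (Itga6) lower, with a median of 1.81, against 9.33% higher, 44.0% lower and a median of -0.82 over all genes. Itgb3 was at 3.12 ± 0.04, Clec1b, the podoplanin receptor, at 2.99 ± 0.04, and Fcer1g, the signalling chain of Gp6, at 1.95 ± 0.06. The purine receptors P2ry1 (0.42) and P2ry12 (-0.84), P2ry12 being also a microglial gene, were not called. Of 12 platelet enzymes and signalling genes 10 were higher and 1 lower, with a median of 2.01; Fyb was at 3.18 ± 0.08, Alox12, the platelet lipoxygenase, at 2.94 ± 0.04, and Ptgs1, the cyclooxygenase of thromboxane synthesis, at 2.05 ± 0.04.

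Of 15 granule and secretion genes, 5 were higher and 4 lower in liver (median 0.83), against 9.33% higher and 44.0% lower over all genes. Vamp8 was at 3.31 ± 0.04 and Srgn, the granule proteoglycan, at 3.15 ± 0.05. Of 12 cytoskeletal and integrin activation genes 5 were higher and 1, Flna at -1.07 ± 0.03, lower (median 0.79), against the same shares of all genes. Tubb1, the tubulin of the platelet marginal band, was at 3.75 ± 0.04 and Fermt3, the integrin activator kindlin-3, at 3.89 ± 0.04. Many of these genes are also expressed by other blood cells. Beside them, 11 of 11 measured erythroid genes, 9 of 10 liver macrophage genes and 9 of 10 neutrophil and mast cell genes were called higher in liver, against 9.33% of all genes. In 5 of the macrophage genes, 4 of the neutrophil and mast cell genes, 2 of the 16 receptors and 1 of the granule genes fewer than 2 brain libraries reached 1 TPM, so these passed the filter through liver, and the counts are descriptions. Under median-of-ratios scaling 12 of the 16 receptors, 10 of the 15 granule genes and 10 of the 12 cytoskeletal genes were called higher, with medians of 2.67, 1.89 and 1.98. Of all 18655 genes, 4062 were called higher under that scaling.

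Of 12 megakaryocyte transcription factors, 7 were higher and 3 lower in liver than in brain (median 1.97), against 9.33% higher and 44.0% lower over all genes. Nfe2 was at 5.9965 ± 0.06, Gata1 at 5.82 ± 0.06 and Gfi1b at 5.38 ± 0.05, all factors shared with the erythroid lineage. Fli1, an ETS factor of megakaryocytes, was at 0.35 ± 0.04 and not called, above the median of -0.82 over all genes. At P0 against E15.5 and E16.5, 6 of the 12 factors fell and none rose, against 3.62% of all genes called lower, with Nfe2 at -1.97 ± 0.18 and Gata1 at -1.42 ± 0.18, while 11 of 11 measured erythroid genes also fell. At P0 against E11.5, 10 of the 12 factors fell, against 38.2% of all genes, with Meis1 at -2.81 ± 0.10 and Zfpm1 at -2.17 ± 0.21. The 6 falls at P0 against E15.5 and E16.5 were also 6 with quantile normalization and with median-of-ratios scaling, against 859 and 802 of all 18655 genes. The 10 falls at P0 against E11.5 were 5 and 2 in these settings, against 2424 and 1546 of all genes, with list medians of -0.93 and -0.70 in place of -1.71.

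Thrombopoietin is the hormone that drives megakaryocyte growth. In liver Thpo was at 8.15 and 8.49 TPM at P0 and at 3.26 and 3.34 TPM at E11.5, and rose by 1.12 ± 0.12 (adjusted p = 2.69e-10), against 8.14% of all genes called higher. Of the 6 genes listed for the thrombopoietin pathway, Thpo included, 1 was called higher and 2 lower in this comparison (median -0.88). Over all genes 38.2% were called lower, with a median of -0.69. The 6 genes summed to 51.9 and 57.63 TPM at P0 and to 100.6 and 107.5 TPM at E11.5. With quantile normalization and with median-of-ratios scaling Thpo was called at 1.77 and 2.22.

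Genes whose levels ran most like each member over the 14 liver libraries were named by the highest Pearson correlation of log2(TPM + 1), as a description with no test. Gp1ba was most like Gp5 (0.988), the subunit that completes its receptor, and Gp1bb was most like Gp1ba (0.956). Gp6 was most like Tubb1 (0.928). The 3 most like Pf4 were Nmd3 (0.986), Plek (0.985), a platelet signalling gene, and Lat (0.968), and those most like Ppbp were Slamf1 (0.868), Cxcl10 (0.855) and Cd226 (0.835). Gp9 was most like Tiprl (0.945), Itga2b most like D10Wsu102e (0.988) and Vwf most like Slc15a4 (0.982). Among the 8 genes, the correlation of Ppbp with the other 7 was 0.046 to 0.503, and that of Vwf was 0.242 to 0.725. Pf4, Gp1ba, Gp9 and Itga2b had 0.793 to 0.941 with one another. All these correlations are on TPM without rescaling, so a change in the haemoglobin share enters them.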

How the data were processed

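The authors deposited 1 table of TPM per gene and library, the only measurement used. Per the labels' protocols, stranded mRNA libraries were made from 4 µg of total RNA; per the submitters' processing notes, STAR 2.4.0k, RSEM 1.2.23 and mm10 were used. Columns summed to 997627 to 1000000. Libraries were grouped by tissue and stage. The 18655 genes that reached 1 TPM in 2 or more libraries were analysed as log2(TPM + 1), which understates changes of low genes, with limma 3.58.1 in R 4.3.3: 1 mean per tissue and stage, all 61 libraries, 30 residual degrees of freedom, moderation with a mean-variance trend. The fit was tested on simulated data. Symbols and positions came from GENCODE M21, promoters from RefSeq GRCm38.p6; of 43346 identifiers 42462 had a symbol. The 8 genes, the 17 other gene lists and the tests were chosen with earlier results of these data known. Named list genes were up to 4 called and 2 uncalled genes per list of highest liver TPM, with others named for their role after their values were seen; 1 gene is not reported here. Alternatives were another pseudocount, other filters, median-of-ratios scaling, quantile normalization, a replicate block, other handling of the doubtful libraries, liver alone, no trend, and each library left out; a comparison within stages alike in mt-Co3 and rescaling without haemoglobin and hepatocyte genes were chosen after seeing the data.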

Additional observations from a re-analysis of the deposited data

Results flagged for a closer look

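Between P0 and E11.5, 3 of the 8 genes were called as changing by different amounts in liver and in brain (limma interaction term, adjusted over all 18655 genes). Of all genes, 9.32% were called higher and 38.6% lower by the same test, so the count of 3 does not set these genes apart. For Ppbp the liver change minus the brain change was 3.77 on the log2 scale: liver had 166 and 146 TPM at P0 and 107 and 107 TPM at E11.5, and brain had 0.18 to 0.44 TPM at P0 and 10.4 to 11.9 TPM at E11.5. For Gp1bb it was -2.27, with 5.28 and 3.26 TPM in liver and 7.96 to 13.2 TPM in brain at P0, where Sept5, which shares 91.1% of its exon bases, was at 258 to 376 TPM. For Gp9 it was 1.03, with 33.5 and 22.95 TPM in liver and 0.07 to 0.40 TPM in brain at P0. The Gp9 value was close to the fold threshold of 1 and fell below it in 3 of the settings run, with 0.77 as the lowest.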

How the results depend on the processing

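The 6 genes called higher in liver than in brain, on average and at each stage, kept that call in every setting run. Of the settings, 13 changed a choice and 61 left out 1 library. The number of the 8 genes called in the liver step of E13.5 and E14.5 against E11.5 and E12.5, 3 as reported, was 1 with median-of-ratios scaling (Ppbp, called higher at 1.12, and none of the 3 falls), 0 with quantile normalization and 0 with haemoglobin and hepatocyte genes left out. Genes called for P0 against E11.5 in liver, 2 as reported, numbered 1 with those genes left out and 0 to 3 when single libraries were left out (0 without the second P0 library, and 3, with Pf4 added, without the first P0 or the second E11.5 library). For P0 against E15.5 and E16.5 leaving out single libraries gave 1 to 2. Genes called for the liver change minus the brain change, 3 as reported, numbered 5 with a pseudocount of 0.1 (Gp1ba and Gp6 added) and 6 with median-of-ratios scaling (Gp1ba, Gp6 and Vwf added). Of all 18655 genes, 3695 were called higher and 3531 lower in that comparison under median-of-ratios scaling. Among called differences and those that became called, the sign turned for Vwf at E15.5 (1.28 with median-of-ratios scaling and 1.39 with quantile normalization), for Gp1bb at P0 (0.0825 and 0.10), at E15.5 (0.14 with quantile normalization) and E16.5 (0.13 with quantile normalization), and for Gp1ba between P0 and E11.5 (0.0006 with median-of-ratios scaling). Differences not called in either setting also turned to positive with these 2 scalings: Gp1bb between liver and brain on the average (0.44 and 0.63), at E13.5 (0.26 and 0.55) and at E14.5 (0.15 and 0.50), and, between P0 and E11.5 in liver, Gp1bb (0.39 and 0.05), Gp9 (0.58 and 0.21) and Gp6 (0.69 and 0.30), with Pf4 at 0.19 in the first; Gp9 and Gp6 turned likewise in the step of E13.5 and E14.5 (0.55 and 0.32, and 0.55 and 0.55). The cause of these shifts was not tested beyond the change in the median of all genes. Over all genes, liver against brain gave 1740 higher and 8203 lower, 4062 and 4151 with median-of-ratios scaling, and 3975 and 3866 with quantile normalization; for E13.5 and E14.5 against E11.5 and E12.5 the 189 higher and 2466 lower became 808 and 534, and 658 and 398, and for P0 against E11.5 in liver the 1519 and 7120 became 3168 and 1546, and 2398 and 2424. The replicate block changed 1 call, Pf4 in brain at P0 against E11.5, which was called at -1.22; that fit also left out the 4 libraries of conflicting labels. Equal replicate numbers showed no common pairing: their deviations correlated at -0.634 to 0.32 over 378 pairs of groups (median 0.003), 28 of them above 0.1. This count leaves out negative correlations, so whether libraries of different groups share a batch was not tested. Depth is unknown, so the precision of values under 1 TPM could not be given.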

Other observations

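Genes of other blood cells of the liver were also compared between stages. At P0 against E11.5, 8 of 10 neutrophil and mast cell genes and 9 of 10 liver macrophage genes were called higher and none lower, against 1519 of all 18655 genes called higher. In these lists 4 neutrophil and mast cell genes and 5 macrophage genes passed the filter through liver, so the counts are descriptions. The neutrophil and mast cell genes summed to 7332 and 7360 TPM at P0 and to 268 and 271 TPM at E11.5, and the liver macrophage genes to 804 and 945 TPM at P0 and to 159 and 163 TPM at E11.5. The 8 megakaryocyte and platelet genes summed to 412 and 527.5 TPM at P0 and to 665 and 669 TPM at E11.5. Of the 9 stem and progenitor genes 4 were called lower and none higher, against 38.2% of all genes called lower; under median-of-ratios scaling 1 was lower and 2 higher, and with quantile normalization 3 were lower and 1 higher. The 8 neutrophil and mast cell genes were also 8 under both scalings, and the 9 liver macrophage genes were 10. Over all genes, 3168 were higher and 1546 lower under median-of-ratios scaling, and 2398 and 2424 with quantile normalization.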
